A study of Mus musculus with 12 samples.

Results

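The genes described here are 10 effectors and signals of epithelial defence in the gut: the REG lectins *Reg1*, *Reg3a*, *Reg3b*, *Reg3g* and *Reg4*, the serum amyloid A genes *Saa1*, *Saa2* and *Saa3*, the NADPH oxidase gene *Duox2* and its maturation factor gene *Duoxa2*. They were chosen by gene symbol and are 10 of the 25341 transcript clusters that carry a symbol in the platform annotation, out of 41345 clusters in all. A transcript cluster is the array's unit of measurement for a gene, and its value is on a log2 scale. Of the 10 genes, 8 were read from a cluster under their own symbol alone, while *Saa1* was read from a cluster annotated to both *Saa1* and *Saa2*, and *Duoxa2* from a cluster annotated to both *Duoxa2* and *Duoxa1*. *Saa2* had its own cluster besides the shared one.

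REG3 proteins are secreted C-type lectins, and REG3γ binds the peptidoglycan of Gram-positive bacteria and keeps bacteria away from the ileal surface. Their transcription in the epithelium is induced through toll-like receptor signalling and by IL-22 acting on STAT3. Serum amyloid A proteins are acute phase apolipoproteins that are also made by the gut epithelium after bacterial adhesion, where they favor Th17 responses. DUOX2 is an apical oxidase that releases hydrogen peroxide into the lumen, and it leaves the endoplasmic reticulum only together with DUOXA2. REG4 is a REG family lectin of secretory epithelial cells, in the mouse colon a marker of deep crypt secretory cells.

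Epithelial cells released with EDTA from the gut of untreated 11-week-old mice, called S-IECs where they came from the ileum and L-IECs where they came from the colon, were profiled on Affymetrix Mouse Gene 2.0 ST arrays, with 3 arrays in each of 4 groups. The groups were S-IECs of Nfat5IEC-KO mice, S-IECs of Nfat5fl/fl mice, L-IECs of Nfat5IEC-KO mice and L-IECs of Nfat5fl/fl mice. Nfat5IEC-KO mice carry floxed *Nfat5* alleles and a *Vil-Cre* transgene, whose villin promoter drives Cre in the intestinal epithelium, and the control Nfat5fl/fl mice carry the same floxed alleles. The study's methods describe male mice on a C57BL/6J background. Each title numbers a mouse, but the labels do not say whether S-IECs and L-IECs with 1 number came from 1 animal, so the p-values measure the spread between these samples.

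Arrays of 1 group correlated at r of 0.988 to 0.992, and array medians were 4.48 to 4.57. The ileal marker *Fabp6* was higher in S-IECs of Nfat5fl/fl mice by a log2 value of 7.51, all 4 measured ileal enterocyte markers were higher there and all 5 measured colonocyte markers lower, so the labelled tissues were borne out by their markers. *Car1*, a colonocyte marker, averaged 4.49 ± 0.73 in Nfat5IEC-KO and 7.55 ± 2.86 in Nfat5fl/fl S-IECs (SD, n = 3 each). *Nfat5* itself averaged 6.94 ± 0.05 in Nfat5IEC-KO and 7.49 ± 0.04 in Nfat5fl/fl L-IECs (SD, n = 3 each) without overlap, but 7.98 ± 0.13 in the S-IEC arrays labelled Nfat5IEC-KO and 8.08 ± 0.08 in Nfat5fl/fl S-IECs (SD, n = 3 each), where the groups overlapped. The differences of −0.55 in L-IECs and −0.10 in S-IECs had limma adjusted p of 0.544 and 0.763. Their unadjusted limma p was 0.0002848 in L-IECs and 0.4217 in S-IECs. The S-IEC genotype is therefore given as the labels state it. In Nfat5IEC-KO mice the study itself reported less *Nfat5* mRNA in epithelial cells and less NFAT5 protein in the epithelium. The deposited table has no detection call. The median of all named clusters was 4.79, and *Reg1*, the *Saa2* cluster and *Saa3* stayed near or below it in all groups, so they are called dim here.

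The promoter windows of *Reg3a*, *Reg3b* and *Reg3g* are shown because these genes had the same regional pattern, and those of *Saa1* and *Saa2* because 1 cluster serves both genes. All 10 genes had a window in the RefSeq table for GRCm38.p6, each of 300 bases, with 250 before and 50 after the annotated start, and they are printed 5′ to 3′ along the gene's strand. Capitals mark matches, on either strand, to TATAAA (the TATA box), TTCNNNGAA (the core of STAT sites), TTGCNNAA (a C/EBP core), the NF-kappaB motif and the tonicity enhancer, the motif that NFAT5 binds. Positions below count from 1 at the 5′ end of a window.
Reg3a, chr6:78380459-78380758, plus strand: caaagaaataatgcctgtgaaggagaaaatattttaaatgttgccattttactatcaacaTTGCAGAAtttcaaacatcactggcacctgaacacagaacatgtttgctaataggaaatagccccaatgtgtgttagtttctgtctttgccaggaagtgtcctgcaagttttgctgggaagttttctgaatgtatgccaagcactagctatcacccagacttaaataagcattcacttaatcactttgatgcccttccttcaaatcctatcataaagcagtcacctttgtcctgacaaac
Reg3b, chr6:78370635-78370934, plus strand: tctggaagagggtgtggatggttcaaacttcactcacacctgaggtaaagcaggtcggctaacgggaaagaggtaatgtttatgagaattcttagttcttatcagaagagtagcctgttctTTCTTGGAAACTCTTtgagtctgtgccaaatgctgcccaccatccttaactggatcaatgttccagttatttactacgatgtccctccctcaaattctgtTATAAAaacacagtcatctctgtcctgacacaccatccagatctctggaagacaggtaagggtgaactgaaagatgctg
Reg3g, chr6:78468825-78469124, minus strand: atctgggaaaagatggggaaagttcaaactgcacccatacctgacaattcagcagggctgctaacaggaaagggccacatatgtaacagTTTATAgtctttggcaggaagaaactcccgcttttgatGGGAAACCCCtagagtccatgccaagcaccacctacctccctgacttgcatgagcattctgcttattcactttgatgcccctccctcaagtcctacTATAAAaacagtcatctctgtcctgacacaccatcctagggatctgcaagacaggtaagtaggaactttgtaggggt
Saa1, chr7:46742931-46743230, minus strand: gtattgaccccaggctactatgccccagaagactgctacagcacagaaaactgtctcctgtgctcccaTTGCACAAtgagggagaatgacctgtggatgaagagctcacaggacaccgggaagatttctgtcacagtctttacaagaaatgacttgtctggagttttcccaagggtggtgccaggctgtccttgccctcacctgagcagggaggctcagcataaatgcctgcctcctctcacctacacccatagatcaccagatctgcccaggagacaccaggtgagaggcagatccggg
Saa2, chr7:46751583-46751882, plus strand: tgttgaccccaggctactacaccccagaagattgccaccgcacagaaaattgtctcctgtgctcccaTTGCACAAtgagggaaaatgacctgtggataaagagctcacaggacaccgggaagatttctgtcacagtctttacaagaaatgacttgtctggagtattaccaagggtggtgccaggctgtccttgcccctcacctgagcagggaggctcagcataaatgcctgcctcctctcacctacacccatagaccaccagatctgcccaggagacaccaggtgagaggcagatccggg

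A TATAAA match lay at bases 222 to 227 in *Reg3b* and 224 to 229 in *Reg3g*, which had another on the opposite strand at bases 90 to 95, and *Reg3a* had none. In all, 4 of the 10 windows held TATAAA, against 13.6% of the 32851 windows of this length in the table. TTGCNNAA was in 4 of 10 windows, against 10.8% of all windows. The 3 serum amyloid A genes and *Reg3a* made up these 4. TTCNNNGAA was found in 1 of 10 windows, against 8.3%, at bases 122 to 130 of *Reg3b*, where it overlapped a tonicity enhancer match at bases 126 to 136. The tonicity enhancer was in 2 of 10 windows, those of *Reg3b* and *Saa3*, against 4.96% of all. An NF-kappaB match was in 1 of 10 windows, against 8.46%, at bases 128 to 137 of *Reg3g*, and it reads on both strands. A match is only a run of letters. The windows of *Saa1* and *Saa2* were identical at 287 of 301 aligned columns (95.3%), those of *Reg3b* and *Reg3g* at 214 of 310 (69%). The other genes lie at chr6:78425983-78428668 (*Reg1*), chr3:98222138-98236748 (*Reg4*), chr7:46711998-46719615 (*Saa3*), chr2:122279246-122298740 (*Duox2*) and chr2:122298900-122302885 (*Duoxa2*) of the same build. The windows of *Saa3* (chr7:46715627-46715926) and *Duox2* (chr2:122298178-122298477) lie inside the gene ranges given here, not before them. The start sites used for the *Duox2* and *Duoxa2* windows lie 673 bases apart on chromosome 2, on opposite strands.

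The 3 REG3 lectins marked the ileum and the shared serum amyloid cluster marked the colon, and both patterns were present in both genotypes. In Nfat5IEC-KO mice 4 of the 10 genes were higher in S-IECs and 4 lower at a limma adjusted p under 0.05, over all 25341 clusters, of which 10% were higher and 14.7% lower. In Nfat5fl/fl mice 4 were higher and 4 lower as well, against 7.2% of all clusters higher and 10.4% lower. In bulk RNA, fewer cells of a type and less RNA per cell cannot be told apart. The tissue and genotype comparisons below use the same 12 arrays and share them.

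**Figure D1:**
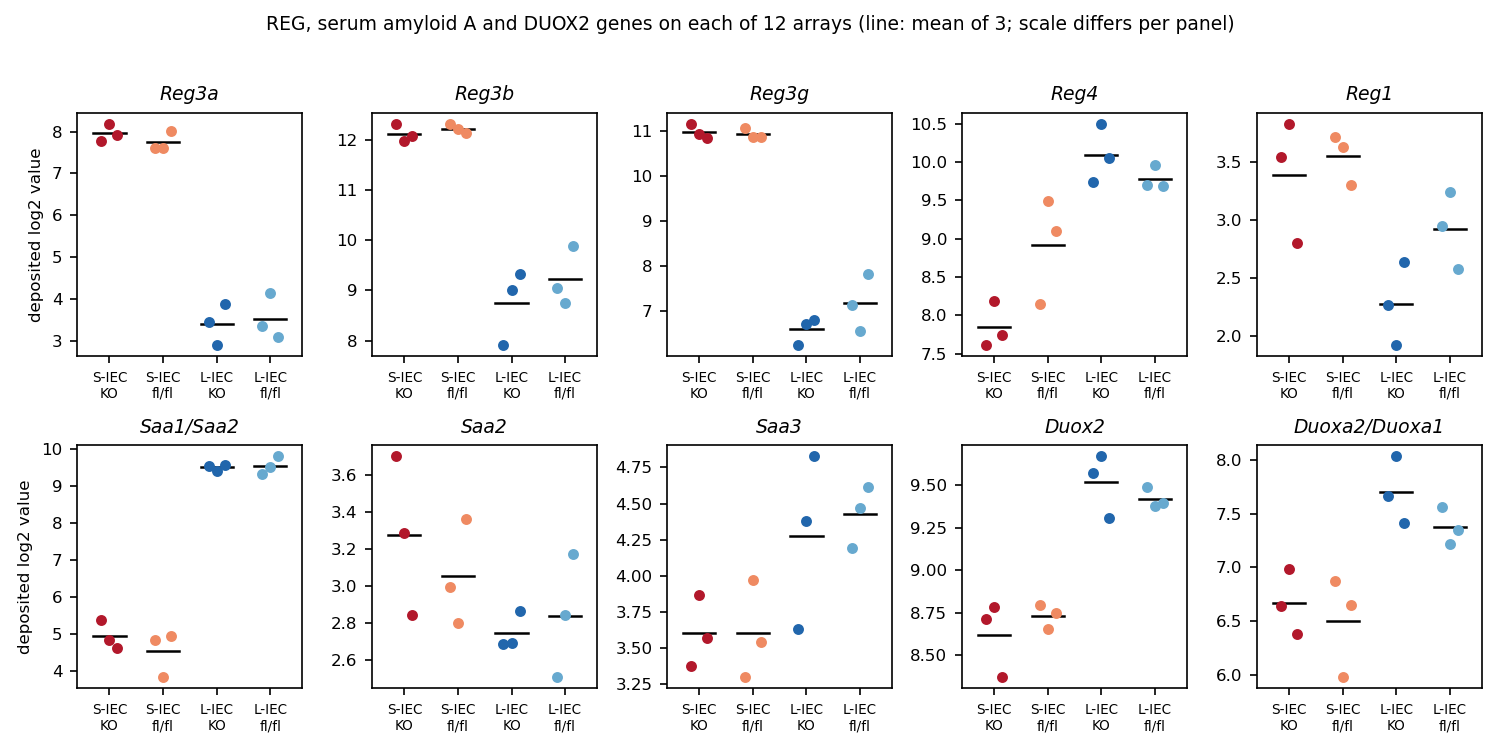
Deposited log2 value (y axis, its range differs per panel) of each of the 10 genes on each array (points) with the mean of 3 (line), for S-IECs and then L-IECs, Nfat5IEC-KO left of Nfat5fl/fl. The S-IEC points of *Reg3a*, *Reg3b* and *Reg3g* lie above all L-IEC points, those of the *Saa1*/*Saa2* cluster, *Duox2* and the *Duoxa2*/*Duoxa1* cluster below them.

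*Reg3g*, whose product acts on Gram-positive bacteria, had log2 values of 11.16, 10.94 and 10.86 in Nfat5IEC-KO S-IECs, against 6.25, 6.72 and 6.81 in Nfat5IEC-KO L-IECs. Nfat5fl/fl mice had 11.07, 10.86 and 10.86 in S-IECs, against 7.13, 6.55 and 7.83 in Nfat5fl/fl L-IECs. The tissues did not overlap in either genotype, and the S-IEC arrays lay closer together than the L-IEC arrays. *Reg3g* was 21-fold higher in S-IECs of Nfat5IEC-KO mice (log2 difference 4.39, SE 0.16, limma adjusted p = 1.932e-07) and 13.5-fold higher in S-IECs of Nfat5fl/fl mice (95% interval 8.86 to 20.7, log2 difference 3.76, SE 0.27, limma adjusted p = 1.528e-05).

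*Reg3b*, the neighbouring lectin gene that acts mainly on Gram-negative bacteria, had values of 12.31, 11.97 and 12.08 in Nfat5IEC-KO S-IECs, against 7.91, 9.01 and 9.32 in Nfat5IEC-KO L-IECs. Nfat5fl/fl S-IEC values were 12.31, 12.21 and 12.13, against 9.04, 8.75 and 9.89 in Nfat5fl/fl L-IECs. All S-IEC arrays were above all L-IEC arrays, and the L-IEC arrays were more spread than the S-IEC arrays. The difference was 10.35-fold in Nfat5IEC-KO mice (log2 difference 3.37, SE 0.31, limma adjusted p = 5.725e-05) and 7.94-fold in Nfat5fl/fl mice (log2 difference 2.99, SE 0.25, limma adjusted p = 4.41e-05).

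*Reg3a*, the third gene of this group on chromosome 6, had values of 7.78, 8.18 and 7.93 in Nfat5IEC-KO S-IECs, against 3.45, 2.90 and 3.89 in Nfat5IEC-KO L-IECs. Nfat5fl/fl arrays had 7.60, 7.60 and 8.02 in S-IECs, against 3.35, 4.14 and 3.10 in Nfat5fl/fl L-IECs. Its colonic values lay below the median of all clusters, so its fold rests on a dim colonic signal. That fold was 23.4 in Nfat5IEC-KO mice (log2 difference 4.55, SE 0.23, limma adjusted p = 1.057e-06) and 18.5 in Nfat5fl/fl mice (log2 difference 4.21, SE 0.25, limma adjusted p = 4.459e-06).

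The cluster annotated to both *Saa1* and *Saa2*, 2 acute phase genes with nearly the same sequence, ran the other way. It had values of 5.39, 4.84 and 4.64 in Nfat5IEC-KO S-IECs, against 9.55, 9.40 and 9.57 in Nfat5IEC-KO L-IECs. Values in Nfat5fl/fl S-IECs were 4.86, 3.84 and 4.95, against 9.33, 9.52 and 9.81 in Nfat5fl/fl L-IECs. No array of 1 tissue came near those of the other, and the S-IEC means, 4.95 in Nfat5IEC-KO and 4.55 in Nfat5fl/fl mice, lay near or below the median of all clusters, so the folds rest on a dim ileal signal and are approximate. The cluster was 23.5-fold lower in S-IECs of Nfat5IEC-KO mice (log2 difference −4.55, SE 0.18, limma adjusted p = 2.896e-07) and 32.1-fold lower in S-IECs of Nfat5fl/fl mice (log2 difference −5.00, SE 0.27, limma adjusted p = 2.778e-06). Which of both genes gave this signal was not tested, nor how far near-identical transcripts cross-hybridize. The cluster annotated to *Saa2* alone was dim, at 2.84 to 3.70 in Nfat5IEC-KO S-IECs and 2.69 to 2.87 in Nfat5IEC-KO L-IECs, and at 2.80 to 3.36 in Nfat5fl/fl S-IECs and 2.51 to 3.17 in Nfat5fl/fl L-IECs. Its tissue difference was 0.53 in Nfat5IEC-KO mice (limma adjusted p = 0.0839) and 0.21 in Nfat5fl/fl mice (95% interval −0.23 to 0.65, limma adjusted p = 0.537).

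*Saa3*, the serum amyloid gene of macrophages and other tissues outside the liver, was dim as well. It had values of 3.38, 3.87 and 3.57 in Nfat5IEC-KO S-IECs, against 3.63, 4.38 and 4.83 in Nfat5IEC-KO L-IECs, and 3.30, 3.97 and 3.54 in Nfat5fl/fl S-IECs, against 4.19, 4.47 and 4.61 in Nfat5fl/fl L-IECs. The tissues overlapped in Nfat5IEC-KO mice only. Its tissue difference was −0.67 in Nfat5IEC-KO mice (limma adjusted p = 0.107) and −0.82 in Nfat5fl/fl mice (limma adjusted p = 0.0137). Without Nfat5fl/fl L-IEC replicate 3 the Nfat5fl/fl call was lost (limma adjusted p = 0.0552), and without Nfat5IEC-KO L-IEC replicate 1 the Nfat5IEC-KO difference was called (limma adjusted p = 0.00895).

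*Duox2*, which encodes the peroxide-producing oxidase, was lower in S-IECs than in L-IECs, by less than the REG3 lectins and the *Saa1*/*Saa2* cluster differed. It had values of 8.71, 8.78 and 8.37 in Nfat5IEC-KO S-IECs, against 9.57, 9.67 and 9.31 in Nfat5IEC-KO L-IECs. In S-IECs of Nfat5fl/fl mice it had 8.80, 8.66 and 8.75, against 9.49, 9.38 and 9.39 in Nfat5fl/fl L-IECs. The tissues did not overlap in either genotype. The log2 difference was −0.89 in Nfat5IEC-KO mice (1.86-fold lower, SE 0.15, limma adjusted p = 0.00211) and −0.69 in Nfat5fl/fl mice (1.61-fold lower, SE 0.10, limma adjusted p = 0.00148).

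The cluster of *Duoxa2*, the factor that brings DUOX2 to the cell surface, and *Duoxa1* went the same way. Its values were 6.64, 6.99 and 6.38 in Nfat5IEC-KO S-IECs, against 7.66, 8.03 and 7.41 in Nfat5IEC-KO L-IECs. In Nfat5fl/fl mice they were 6.88, 5.97 and 6.65 in S-IECs, against 7.56, 7.21 and 7.35 in L-IECs. Every S-IEC array was below every L-IEC array of its genotype. The log2 difference was −1.03 in Nfat5IEC-KO mice (limma adjusted p = 0.0044) and −0.87 in Nfat5fl/fl mice (limma adjusted p = 0.0221). The Nfat5fl/fl call was lost without Nfat5fl/fl L-IEC replicate 1 (limma adjusted p = 0.0789) or replicate 3 (limma adjusted p = 0.0619).

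*Reg4* was the lectin that ran against the REG3 group. It had values of 7.61, 8.18 and 7.75 in Nfat5IEC-KO S-IECs, against 9.73, 10.49 and 10.05 in Nfat5IEC-KO L-IECs, and was 4.73-fold lower in S-IECs there (log2 difference −2.24, SE 0.21, limma adjusted p = 6.814e-05). In Nfat5fl/fl mice it had 8.15, 9.49 and 9.09 in S-IECs, against 9.70, 9.96 and 9.68 in L-IECs. The Nfat5fl/fl tissues did not overlap, but the difference of −0.87 did not pass (95% interval −1.52 to −0.21, limma adjusted p = 0.0744). Without Nfat5fl/fl S-IEC replicate 2, the highest of the 3, it passed (log2 difference −1.16, limma adjusted p = 0.0184).

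*Reg1*, a REG gene best known from the exocrine pancreas, was dim, at 2.80 to 3.83 in Nfat5IEC-KO S-IECs and 1.92 to 2.64 in Nfat5IEC-KO L-IECs, and at 3.30 to 3.72 in Nfat5fl/fl S-IECs and 2.58 to 3.24 in Nfat5fl/fl L-IECs. The tissues did not overlap in either genotype. It was higher in S-IECs by 1.11 in Nfat5IEC-KO mice (limma adjusted p = 0.0141) and by 0.63 in Nfat5fl/fl mice (limma adjusted p = 0.0435). The Nfat5IEC-KO call was lost without S-IEC replicate 1 (limma adjusted p = 0.0526) or L-IEC replicate 2 (limma adjusted p = 0.0516). The Nfat5fl/fl call was lost without S-IEC replicate 1 or 2 (limma adjusted p = 0.145 and 0.116) or L-IEC replicate 1 or 3 (limma adjusted p = 0.0990 and 0.126). The exocrine pancreas markers, 7 measured, summed to 188 to 221 linear units in Nfat5IEC-KO S-IECs and 360 to 446 in Nfat5IEC-KO L-IECs, and to 215 to 279 in Nfat5fl/fl S-IECs and 398 to 421 in Nfat5fl/fl L-IECs. Their part in the *Reg1* values was not tested.

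**Figure D2:**
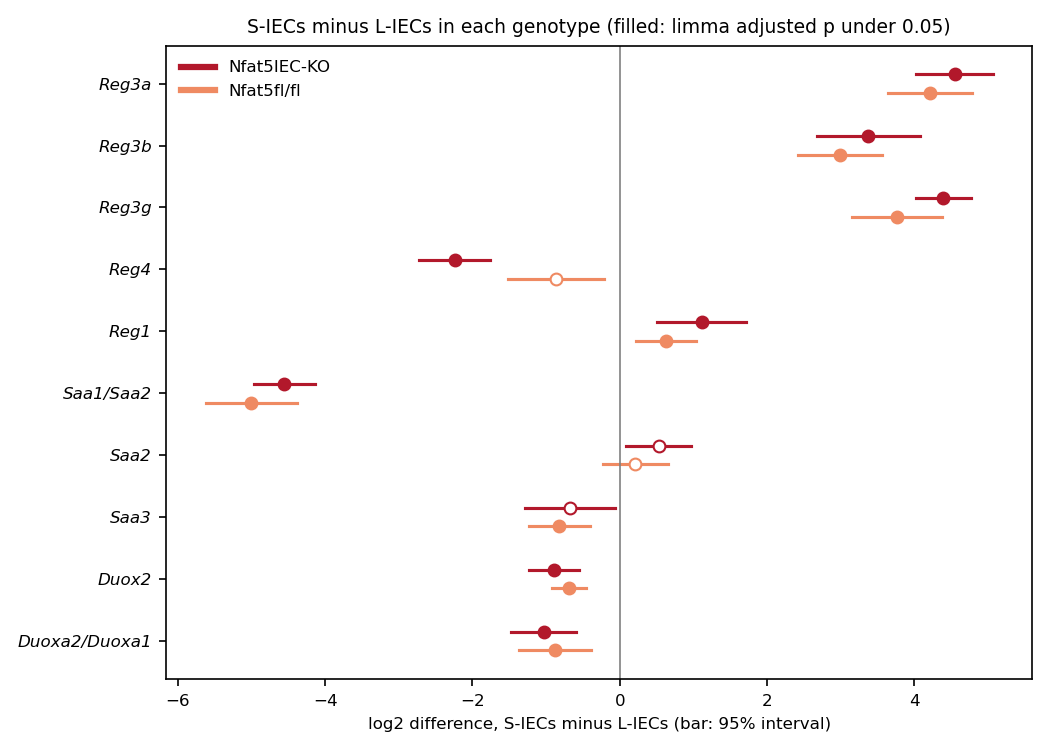
Log2 difference of S-IECs minus L-IECs (x axis) for each of the 10 genes (rows), Nfat5IEC-KO above Nfat5fl/fl. Bars are 95% intervals from limma, and filled points had an adjusted p under 0.05 over all clusters. *Reg3a*, *Reg3b* and *Reg3g* lie at 2.99 or more, and the *Saa1*/*Saa2* cluster at −4.55 and −5.00.

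Counted without a fit, 4 of the 10 genes had all Nfat5IEC-KO S-IEC arrays above all Nfat5IEC-KO L-IEC arrays and 4 had all below, against 18.8% and 21.8% of all clusters. In Nfat5fl/fl mice the counts were 4 above and 5 below, against 15.2% and 18.9% of all clusters. For each of these the 2-sided exact permutation test gave 0.1, the smallest p that 3 arrays against 3 allow. Of the spread of a gene over the 12 arrays, measured as sums of squares, tissue held 98% for the *Saa1*/*Saa2* cluster, 97.7% for *Reg3a*, 96.9% for *Reg3g*, 93.1% for *Reg3b* and 89.6% for *Duox2*. It held 71.4% for the *Duoxa2*/*Duoxa1* cluster and 68.7% for *Reg4*. For *Saa3*, *Reg1* and the *Saa2* cluster the shares were 58%, 55.8% and 32.4%. Genotype alone held 11.9% for *Reg1* and 4.91% or less for the other 9 genes. The difference between tissues in the genotype difference held 13.4% for *Reg4*, where genotype alone held 4.05%. It held 5.95% or less for the other 9 genes.

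As a group, the 5 REG lectins had a median S-IEC minus L-IEC log2 difference of 3.37 in Nfat5IEC-KO and 2.99 in Nfat5fl/fl mice, beside 0.02 and 0.00 over all clusters. That median is the value of *Reg3b*, and the 5 had no common direction. *Reg4* ran the other way, at −2.24 and −0.87, and *Reg1* was dim. The 3 serum amyloid genes had no common direction. Their median of −0.67 and −0.82 is the value of *Saa3*, a dim gene. The *Saa1*/*Saa2* cluster was at −4.55 and −5.00 and the *Saa2* cluster at 0.53 and 0.21. Ordered by group mean, the REG3 genes had both S-IEC groups above both L-IEC groups, with a gap between the tissues of 4.21 for *Reg3a*, 3.76 for *Reg3g* and 2.89 for *Reg3b* on the log2 scale. Within each tissue the ranges of the genotypes overlapped for all 10 genes. For *Reg4* the order was Nfat5IEC-KO L-IECs, Nfat5fl/fl L-IECs, Nfat5fl/fl S-IECs and, lowest, Nfat5IEC-KO S-IECs, and only the step between the tissues was without overlap.

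Between genotypes, none of the 10 genes passed in either tissue. In S-IECs 0 of 10 had a limma adjusted p under 0.05 in either direction, against 0.00789% of all clusters higher and 0% lower in Nfat5IEC-KO. In L-IECs it was again 0 of 10, against 0% of all clusters in both directions. Before adjustment, with p under 0.05 and a fold of 1.5 or more, *Reg4* was the 1 gene of 10 that was lower in S-IECs, against 1.96% of all clusters, and none was higher, against 0.702%. In L-IECs *Reg1* was the 1 gene lower of 10 by that rule, against 0.237% of all clusters, and none was higher, against 0.217%. These were also the only genes of the 10 with an unadjusted p under 0.05 in their tissue. No gene's Nfat5IEC-KO arrays lay all on 1 side of the Nfat5fl/fl arrays, against 9.8% of all clusters above and 10.4% below in S-IECs, and 5.83% above and 6.24% below in L-IECs.

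**Figure D3:**
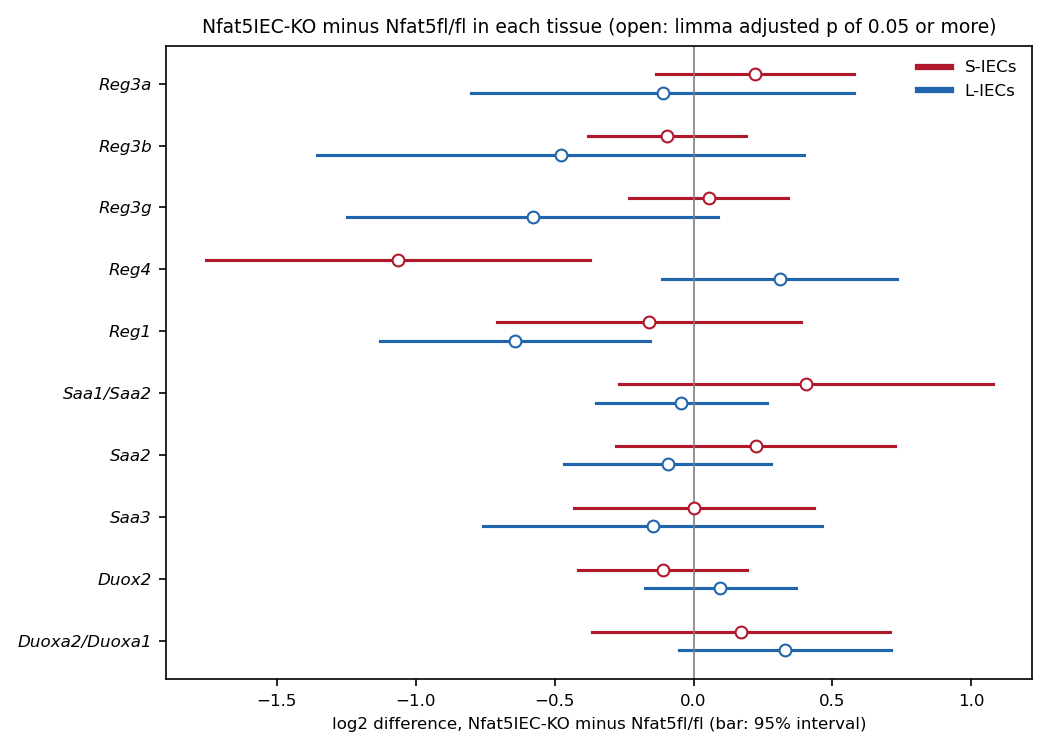
Log2 difference of Nfat5IEC-KO minus Nfat5fl/fl (x axis) for each of the 10 genes (rows), S-IECs above L-IECs. Bars are 95% intervals from limma, and points are open because no gene had an adjusted p under 0.05. The intervals of *Reg4* in S-IECs and *Reg1* in L-IECs do not reach 0.

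*Reg4* had the largest genotype difference of the 10 genes in S-IECs. Its values, 7.61, 8.18 and 7.75 in the arrays labelled Nfat5IEC-KO and 8.15, 9.49 and 9.09 in Nfat5fl/fl arrays, overlapped through the first Nfat5fl/fl array. The log2 difference was −1.06 (SE 0.31, 95% interval −1.76 to −0.37, unadjusted p = 0.00695, limma adjusted p = 0.180), or 2.09-fold lower in Nfat5IEC-KO S-IECs. In L-IECs its difference was 0.31 (95% interval −0.11 to 0.73, limma adjusted p = 0.846). The difference between the tissues in this response was −1.37 (SE 0.40, 95% interval −2.24 to −0.50, unadjusted p = 0.00457) and did not pass (limma adjusted p = 0.260).

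Goblet and Paneth cell markers had lower medians in the S-IEC arrays labelled Nfat5IEC-KO, as *Reg4* had a lower mean there, and none of them passed by adjusted p. In L-IECs the median genotype differences of these 2 lists were 0.13 and 0.10. The mean log2 value of 9 goblet and deep crypt secretory cell markers was 9.41, 10.12 and 9.63 in Nfat5IEC-KO S-IECs, against 10.12, 10.37 and 10.29 in Nfat5fl/fl S-IECs. Their median log2 difference was −0.44, against 0.01 over all clusters. By the same rule before adjustment 3 of these 9 were lower, against 1.96% of all clusters. The 8 enteroendocrine markers had a median of −0.04, and none was lower by that rule. Lists of other cells differed as well. Medians were −0.44 for 5 intestinal stem cell markers, −0.36 for 5 colonocyte markers and −0.27 for 4 ileal enterocyte markers. By that rule 2, 1 and 1 of these were lower. The 5 proximal small intestine markers went the other way, with a median of 0.90 and 4 higher, against 0.702% of all clusters. *Spink4*, a secreted peptide of goblet cells, differed by −1.19 (limma adjusted p = 0.130) and *Spdef*, a goblet cell transcription factor, by −0.55 (limma adjusted p = 0.143). Summed on the linear scale the 9 markers ranged from 12426 to 21382 in Nfat5IEC-KO and from 20029 to 21901 in Nfat5fl/fl S-IECs.

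The 12 Paneth cell markers measured, antimicrobial products of the small intestinal crypt base among them, summed to 20427 to 31696 in Nfat5IEC-KO S-IECs and 34319 to 39749 in Nfat5fl/fl S-IECs. Their mean log2 value was 8.793, 9.844 and 8.739 in Nfat5IEC-KO S-IECs, against 9.843, 10.16 and 10.2 in Nfat5fl/fl S-IECs, so by this measure the groups overlapped. Their median log2 difference was −0.94, with 9 of 12 lower by that rule, against the same 1.96% of all clusters. *Mmp7* differed by −1.34 (limma adjusted p = 0.130). The 5 colonocyte markers summed to 693 to 724 in Nfat5IEC-KO S-IECs and 935 to 1700 in Nfat5fl/fl S-IECs. Their mean log2 value was 5.68, 6.97 and 6.78 in Nfat5fl/fl replicates 1, 2 and 3, and *Reg4* was likewise lowest in replicate 1 and highest in replicate 2. In Nfat5IEC-KO S-IEC replicates 1, 2 and 3 the colonocyte mean was 5.81, 5.61 and 5.87. There *Reg4* was highest in replicate 2, where the colonocyte mean was lowest. The part of these markers in the *Reg4* difference was not tested.

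**Figure D4:**
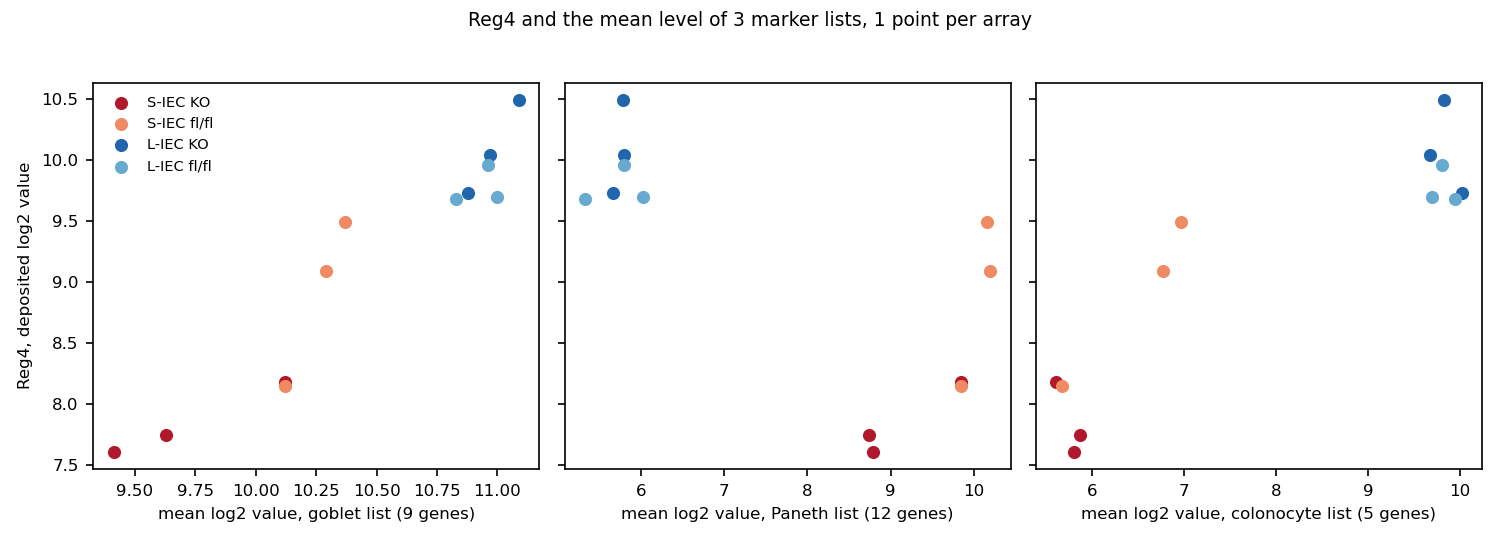
*Reg4* (y axis, log2 value) on each of the 12 arrays against the mean log2 value of 9 goblet and deep crypt secretory cell markers, 12 Paneth cell markers and 5 colonocyte markers (x axes). The 3 Nfat5IEC-KO S-IEC arrays and the first Nfat5fl/fl S-IEC array have the lowest *Reg4*, at 7.61 to 8.18, and the lowest goblet marker means, at 9.41 to 10.12.

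The REG3 genes were close between genotypes in S-IECs. Differences were 0.05 for *Reg3g* (95% interval −0.23 to 0.34), −0.10 for *Reg3b* (95% interval −0.38 to 0.19) and 0.22 for *Reg3a* (95% interval −0.13 to 0.58). The far end of these intervals was 1.49-fold for *Reg3a* and less for *Reg3g* and *Reg3b*. The intervals rest on 3 arrays against 3, and changes up to their ends were not excluded. Limma adjusted p was 0.893 for *Reg3g*, 0.789 for *Reg3b* and 0.573 for *Reg3a*. The Paneth marker sums given above were lower on every one of these Nfat5IEC-KO arrays, and the goblet marker sums overlapped. By mean log2 value the Paneth markers overlapped too. In L-IECs the values of *Reg3g* and *Reg3b* were lower on average in Nfat5IEC-KO, with log2 differences of −0.58 and −0.48, intervals that included 0 (−1.25 to 0.09 and −1.36 to 0.40) and limma adjusted p of 0.821 and 0.879. Nfat5fl/fl L-IEC replicate 3 was the highest L-IEC array for both genes, and without it the differences were −0.25 for *Reg3g* and −0.15 for *Reg3b*. Without Nfat5IEC-KO L-IEC replicate 1 that of *Reg3b* was −0.0596, and without Nfat5fl/fl L-IEC replicate 2 they were −0.89 for *Reg3g* and −0.72 for *Reg3b*. Without Nfat5IEC-KO L-IEC replicate 3 that of *Reg3b* was −0.77. *Reg3a* differed by −0.11 in L-IECs (95% interval −0.80 to 0.58, limma adjusted p = 0.966).

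None of the serum amyloid and DUOX2 genes passed between genotypes either. The *Saa1*/*Saa2* cluster differed by 0.40 in S-IECs (95% interval −0.27 to 1.08, limma adjusted p = 0.590) and by −0.04 in L-IECs (95% interval −0.35 to 0.26, limma adjusted p = 0.970). *Saa3* differed by 0.00 in S-IECs and −0.15 in L-IECs, and the *Saa2* cluster by 0.22 and −0.09. *Duox2* differed by −0.11 in S-IECs (95% interval −0.41 to 0.19, limma adjusted p = 0.771) and by 0.10 in L-IECs (95% interval −0.18 to 0.37, limma adjusted p = 0.916). For the *Duoxa2*/*Duoxa1* cluster the differences were 0.17 in S-IECs and 0.33 in L-IECs (95% interval −0.05 to 0.71, limma adjusted p = 0.821). *Reg1* differed by −0.16 in S-IECs and by −0.64 in L-IECs (SE 0.21, 95% interval −1.13 to −0.16, unadjusted p = 0.0153, limma adjusted p = 0.766), at dim values. In the test of whether the genotype difference differed between tissues, 0 of the 10 genes passed, against 0% of all clusters, and *Reg4* was the 1 gene of 10 with an unadjusted limma p under 0.05. For the 9 genes other than *Reg4* the estimates ran from −0.21 (*Duox2*) to 0.63 (*Reg3g*) on the log2 scale.

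Lists of genes that signal to or work beside these 10 differed in how many members passed between the tissues. The counts below stand against 10% of all clusters higher and 14.7% lower in S-IECs of Nfat5IEC-KO mice, and 7.2% higher and 10.4% lower in S-IECs of Nfat5fl/fl mice. Of 17 other epithelial genes induced by microbes or IL-22, 2 were higher and 11 lower in S-IECs of Nfat5IEC-KO mice by adjusted p, and 1 was higher and 10 lower in S-IECs of Nfat5fl/fl mice, with median log2 differences of −1.22 and −1.02 beside 0.02 and 0.00 over all clusters. The fucosyltransferase gene *Fut2* differed by −4.16 in Nfat5IEC-KO (limma adjusted p = 6.022e-08) and −4.35 in Nfat5fl/fl mice (limma adjusted p = 6.489e-08), and *Dmbt1*, a mucosal scavenger receptor, by −3.10 and −2.32. The gasdermin gene *Gsdmc2* differed by −3.70 and −3.14. *Nos2*, the inducible nitric oxide synthase, was the gene higher in S-IECs in both genotypes, by 3.51 and 3.39. Most of this list lay on the side of the *Saa1*/*Saa2* cluster, opposite to the REG3 genes. In the genotype comparisons none of the 17 passed by adjusted p in either tissue.

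Among 9 measured genes of the NADPH oxidase 1 complex and peroxide handling, 1 was higher and 4 lower in S-IECs in each genotype. *Nox1*, the other colonic epithelial oxidase, differed by −3.04 in Nfat5IEC-KO (limma adjusted p = 5.869e-06) and −2.29 in Nfat5fl/fl mice (limma adjusted p = 2.005e-05), and its activator *Noxa1* by −1.20 and −1.12. Catalase, *Cat*, which breaks down peroxide, was higher in S-IECs by 1.21 and 0.85. The median of the list was −0.11 in Nfat5IEC-KO and −0.15 in Nfat5fl/fl mice.

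Of 10 measured genes of IL-22, IL-6 family and STAT3 signalling, 3 were higher and 2 lower in Nfat5IEC-KO S-IECs, and 2 were higher and 2 lower in Nfat5fl/fl S-IECs, with medians of 0.24 and 0.16. In a list of 10, these counts lower are near the share of all clusters. The IL-22 receptor gene *Il22ra1* was higher by 1.33 in Nfat5IEC-KO (limma adjusted p = 1.854e-05) and 1.24 in Nfat5fl/fl mice (limma adjusted p = 4.872e-05), and the kinase gene *Jak2* by 1.05 and 0.77. *Il6st*, the shared receptor subunit of the IL-6 family, differed by −0.66 and −0.73. Of 16 measured genes of IL-17, toll-like receptor and NF-kappaB signalling, 4 were higher and 5 lower in Nfat5IEC-KO S-IECs, and 3 were higher and 5 lower in Nfat5fl/fl S-IECs, with medians of 0.01 and −0.17. The receptor genes *Il1r1* (−2.99 and −3.22), *Tlr4* (−2.71 and −2.44) and *Tlr2* (−1.51 and −1.59) were lower in S-IECs of Nfat5IEC-KO and of Nfat5fl/fl mice, while *Relb*, an NF-kappaB subunit, was higher by 1.32 and 1.27.

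Of 10 cytokines that induce these genes only *Il18*, which epithelial cells make themselves, passed, with S-IEC minus L-IEC differences of −1.51 in Nfat5IEC-KO and −1.17 in Nfat5fl/fl mice. Of 8 other acute phase genes measured none passed in any comparison. Both lists were dim on average. The mean log2 value per array was 3.75 to 4.03 for the cytokines and 3.35 to 3.61 for the acute phase genes, below the median of all named clusters, 4.79. Of the 5 close relatives *Reg2*, *Reg3d*, *Saa4*, *Duox1* and *Duoxa1*, only *Reg3d* passed, higher by 0.79 in Nfat5IEC-KO S-IECs (limma adjusted p = 0.0108), and it was higher by 0.46 in Nfat5fl/fl S-IECs without passing (limma adjusted p = 0.115). The list of relatives was dim too, with a mean log2 value per array of 2.90 to 3.22. In the 6 lists from the NADPH oxidase 1 complex on, no gene passed between genotypes in either tissue.

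**Figure D5:**
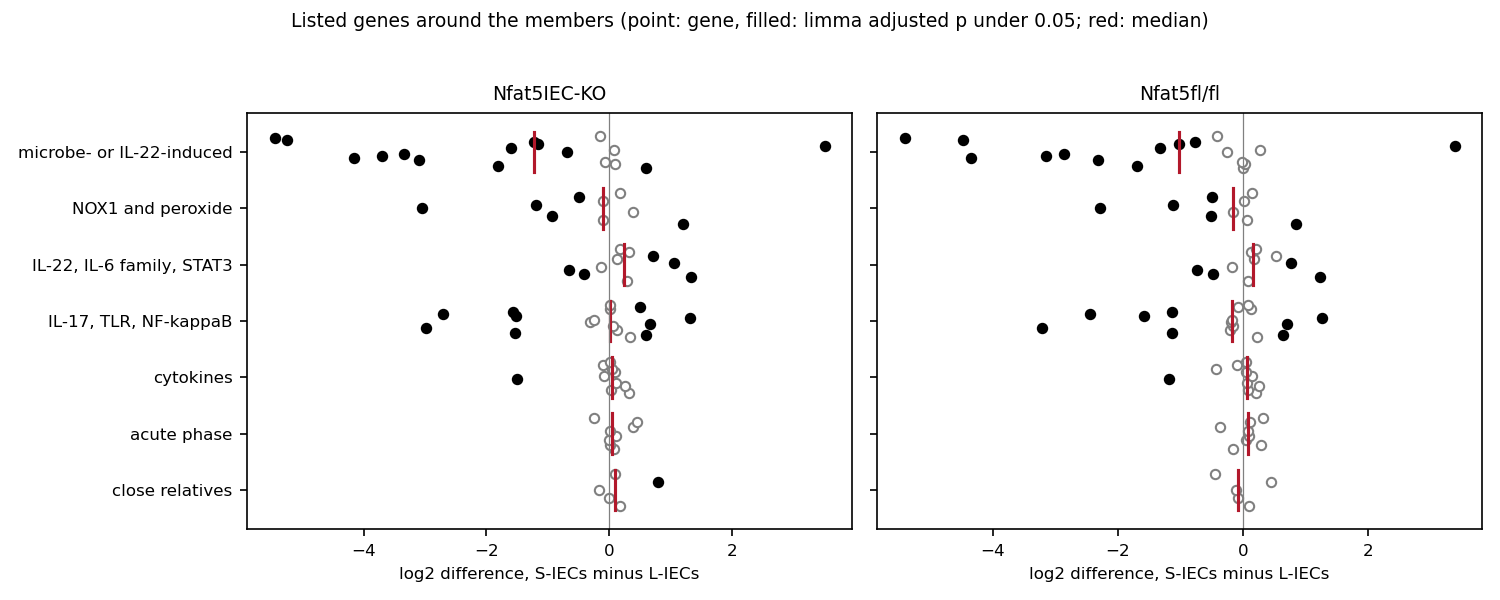
Log2 difference of S-IECs minus L-IECs (x axis) for the genes of 7 lists (rows), in Nfat5IEC-KO (left) and Nfat5fl/fl mice (right). Each point is a gene, filled where limma's adjusted p was under 0.05, and the red line is the list's median. The microbe- or IL-22-induced list lies mostly left of 0, with medians of −1.22 and −1.02.

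Within tissues, some of the 10 genes varied together over the 12 arrays and others did not. After each value was centred on its tissue mean, *Reg3b* and *Reg3g* correlated with Pearson r of 0.882, the *Duox2* and *Duoxa2*/*Duoxa1* clusters with 0.694, and the *Saa1*/*Saa2* and *Saa2* clusters, which are both annotated to *Saa2*, with 0.821, while *Reg3a* correlated with *Reg3b* and *Reg3g* at −0.278 and −0.390, and the *Saa1*/*Saa2* cluster with *Saa3* at −0.303. These are descriptions over arrays that share groups. Among 11010 other genes at or above the median level, *Spink4* was most like *Reg4* (r = 0.951), followed by *Rbbp7* (0.936), *Mcm3* (0.930) and *Klk1* (0.929). The nearest genes to *Reg3g* were *Celsr2* (0.921), *Esr1* (0.864), *Cdpf1* (0.847) and *D11Wsu47e* (0.837). To the *Saa1*/*Saa2* cluster they were *Cdc42ep3* (0.950), *Cd3e* (0.877), *ND6* (0.876) and *Tmem184a* (0.875), and to *Duox2* they were *Znrf1* (0.919), *Chd8* (0.894), *Kifap3* (0.890) and *Ube2j1* (0.877). As the highest of 11010 coefficients over 12 arrays these are large by selection. They describe likeness within tissues only. Without centring, r to *Reg3g* was −0.116 for *Celsr2*, −0.667 for *Esr1* and −0.248 for *Cdpf1*. It was also negative for *Cd3e* (−0.782) and *Tmem184a* (−0.892) to the *Saa1*/*Saa2* cluster, and for *Ube2j1* (−0.549) to *Duox2*. The other genes named had a positive r without centring.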

How the data were processed

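Total RNA of ileal and colonic epithelial cells was measured on 12 arrays, 3 per group, with groups taken from the sample labels. The authors deposited log2 values per transcript cluster. The submitters' processing notes name Transcriptome Analysis Console and mm10. Their normalization and the tool's version were not given in the sources used here. Array columns matched to no sample numbered 0. For arrays, their number limits the precision. No scan date was given, so batches were not tested.

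In R 4.3.3 each comparison was fitted to its own 6 arrays with limma 3.58.1 (lmFit, eBayes; Benjamini-Hochberg over 25341 clusters, of which 1820 carry several symbols), and the difference between tissues as an interaction on all 12. The scripts were tested on simulated data. A gene was read from the brightest cluster of its symbol alone, or with others where there was none. The 10 genes and all gene lists were chosen with earlier results of these data known. From each list the text names up to 4 genes of smallest p; for likeness, the 4 highest Pearson r after tissue centring, without predicted genes, small RNAs and receptor segments. *Spdef*, *Car1*, *Fabp6*, *Cd8a* and *Lyz2* were chosen after their values were seen. *Noxo1*, *Prdx1*, *Gsdmc4* and *Sprr2a1* share a cluster with other genes and were not used; *Prdx6*, *Il11ra1*, *Irak4*, *Nfkb1* and *C3* were not analysed here. Entrez identifiers gave coordinates on GRCm38.p6. Alternatives were a block for the replicate number, 1 fit to all 12 arrays, trended and robust eBayes, array weights, quantile normalization, median centring, a filter on dim clusters (mean under the median of named clusters), every cluster, the methods' t-test, another cluster of a gene, and leaving out each array. Promoters came from RefSeq (GRCm38.p6) and were aligned globally with Biopython.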

Additional observations from a re-analysis of the deposited data

How the results depend on the processing

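In Nfat5fl/fl mice the number of the 10 genes lower in S-IECs was 4. It was 2 by the methods' t-test, and 2 to 5 when each array was left out, with 2 without L-IEC replicate 3. The other counts of genes passing stayed within 1.5 times their value under every alternative run. By the t-test *Reg1*, *Saa3* and the *Duoxa2*/*Duoxa1* cluster did not pass in Nfat5fl/fl mice (adjusted p 0.194, 0.119 and 0.161), nor *Reg1* and the *Duoxa2*/*Duoxa1* cluster in Nfat5IEC-KO mice (0.135 and 0.0710). *Reg4* passed in Nfat5fl/fl mice on all 12 arrays (0.0484) and with dim clusters left out (0.0362). *Reg1* did not pass in Nfat5fl/fl mice on all 12 arrays (0.111), after quantile normalization (0.0563) or over every cluster (0.108), where the *Duoxa2*/*Duoxa1* cluster did not pass either (0.0703). The *Saa2* cluster passed in Nfat5IEC-KO mice without S-IEC replicate 3 (0.0121).

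Whether replicate numbers pair S-IECs and L-IECs of 1 animal could not be decided, because 3 arrays per group are too few. Between the tissues of 1 genotype, same-numbered arrays deviated together at r of −0.0375 to 0.0532. The same number was above the highest r of the other numbers for Nfat5fl/fl replicate 3 (0.0532 against 0.00233) and Nfat5IEC-KO replicate 2 (0.0207 against 0.0152). It was below that r for the other replicates. With the replicate block *Reg4* passed in Nfat5fl/fl mice (adjusted p 0.0347) and *Saa3* in Nfat5IEC-KO mice (0.0451), and no other call of the 10 genes changed.

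Some signs turned, for differences between genotypes or between tissues in that difference that did not pass, and when the cluster was exchanged. The S-IEC genotype difference of *Saa3*, 0.00, became −0.0252 with array weights, −0.0406 after quantile normalization and −0.0185 after median centring. Read from the shared cluster, the tissue difference of *Saa2* was −4.55 in Nfat5IEC-KO and −5.00 in Nfat5fl/fl mice. With each array left out, S-IEC genotype differences ran from −0.0306 to 0.126 for *Reg3g*, −0.15 to 0.19 for *Saa3*, −0.38 to 0.13 for *Reg1*, −0.19 to 0.0153 for *Duox2* and −0.0915 to 0.36 for the *Duoxa2*/*Duoxa1* cluster. In L-IECs they ran from −0.42 to 0.18 for *Saa3*, −0.35 to 0.19 for *Reg3a*, −0.15 to 0.0820 for the *Saa1*/*Saa2* cluster and −0.26 to 0.0723 for the *Saa2* cluster. The difference between tissues ran from −0.17 to 0.42 for *Saa3*, −0.42 to 0.0306 for the *Duoxa2*/*Duoxa1* cluster and −0.0363 to 0.67 for *Reg3b*. For *Reg4* the S-IEC genotype difference stayed negative, from −1.44 to −0.78, and its adjusted p was 0.0719 to 0.444 over all alternatives.

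Over all clusters, those passing between genotypes in S-IECs numbered 2 higher and 0 lower, but 127 and 444 on all 12 arrays, 166 and 314 with trended and robust eBayes, 42 and 89 with dim clusters left out, and 23 and 203 without Nfat5IEC-KO replicate 2. The methods' t-test gave 0 and 0. None of the 10 genes was among them.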

Other observations

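Cell type markers gave further values beside the tissue differences, to be read against 10% of all clusters higher and 14.7% lower in S-IECs of Nfat5IEC-KO mice, and 7.2% and 10.4% in S-IECs of Nfat5fl/fl mice. Of 5 intestinal stem cell markers, 2 were higher in S-IECs of Nfat5IEC-KO and 4 in S-IECs of Nfat5fl/fl mice by limma's adjusted p. All 5 proximal small intestine markers were higher in both. Of 7 T cell and innate lymphoid cell markers, 2 were higher in Nfat5IEC-KO S-IECs and 4 in Nfat5fl/fl S-IECs, among them *Cd8a* at 1.11 and 0.72 on the log2 scale. Of 7 macrophage and dendritic cell markers, 3 were higher in Nfat5IEC-KO S-IECs and 1 in Nfat5fl/fl S-IECs, where it was *Lyz2* at 1.86. Of 5 B and plasma cell markers, 1 was higher in each genotype, and of 7 stromal markers 1 was lower in each, near the share of all clusters. None of 6 neutrophil markers passed, and their sum was 69 to 95 linear units over the 4 groups. Of 8 enteroendocrine markers, 1 was higher and 5 were lower in S-IECs in each genotype.

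Between genotypes none of these markers passed by adjusted p in either tissue. The largest list medians in S-IECs were 0.90 for proximal small intestine, with 4 of 5 markers higher when p before adjustment was under 0.05 and the fold 1.5 or more, −0.44 for intestinal stem cells and −0.94 for Paneth cells. The proximal markers *Fabp1*, *Lct* and *Adh6a* differed by 1.39, 1.10 and 0.90 in Nfat5IEC-KO minus Nfat5fl/fl S-IECs (limma adjusted p = 0.134, 0.137 and 0.137). In L-IECs the median of every cell type marker list lay between −0.22 and 0.20.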
